A study of Mus musculus with 20 samples.

Results

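Nsg2, Sidt1, Lrig1, Tgm2, Zdhhc13, Tnfrsf26 and Ms4a4b are 7 genes chosen because their RNA was high in Bcl6 reporter-positive intraepithelial lymphocytes (IELs) and low in reporter-negative ones. They were found by symbol and had a row in each of the 20 libraries, among 25933 gene symbols listed in any table. The study sorted TCRαβ+CD8αα+ IELs, T cells of the gut lining, from the mouse small intestine at steady state and measured their RNA in bulk. Mice with the genotype Bcl6-RFP/RFP, in which red fluorescent protein (RFP) reports Bcl6, gave 3 libraries of RFP+CD160+ cells and 3 of RFP-CD160- cells. Knockout cells came from Bcl6fl/fl Cd8cre, Prdm1fl/fl Cd8cre and Tcf7fl/fl Cd8cre mice, and each genotype had its own floxed littermates without Cre (Bcl6fl/fl, Prdm1fl/fl or Tcf7fl/fl), with 2 libraries in every group. Cd8cre, a Cre recombinase driven from Cd8, was in every knockout and in no littermate, so the loss of a gene and any effect of the Cre cannot be told apart. Another 2 libraries titled LI_1 and LI_2 carry the genotype Bcl6-RFP/RFP and the tissue label small intestine, but no sort gate. They are therefore in no group, and each is given by its own value. Ages are not stated in the labels used here, nor whether the libraries of a group came from separate mice, so each p-value measures only the spread between these libraries.

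BCL6 and BLIMP1, the protein encoded by Prdm1, are transcriptional repressors that oppose each other in many lymphocytes. TCF1, encoded by Tcf7, is a transcription factor of T cells that are stem-like or not yet effectors. CD8αα+ IELs are long-lived cells, lodged in the epithelium, that carry large amounts of granzymes, and CD160 is a surface receptor found on many of them.

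Sequencing depth is given here per 1000000 reads. RFP+CD160+ libraries held 14.5 to 16.9 such units, RFP-CD160- libraries 16.6 to 17.4, and LI_1 and LI_2 30.0 and 22.5. Libraries of the knockouts and their littermates were deeper, with 22.1 to 23.0 units (Bcl6), 30.1 to 38.4 (Prdm1) and 41.0 to 48.2 (Tcf7). The RFP, LI and Bcl6 values are FPKM, reads per gene scaled to gene length and depth. The Prdm1 and Tcf7 values are scaled reads, whole reads divided by a factor for each library, with no gene length. Levels are therefore compared between genes only in FPKM, and between conditions only within an experiment. The sorted cells carried the RNA of CD8α T cells: Cd8a was at 542 to 612 FPKM in RFP+CD160+ libraries and 871 to 946 FPKM in RFP-CD160- libraries. Of 11 listed genes of CD8αα+ IELs, 9 were lower in every RFP+CD160+ library than in any RFP-CD160- library. Cd160, a gene of the sort, was higher, and Cd247 overlapped. The granzyme genes were far lower in RFP+CD160+ libraries, Gzma at 73.7 to 166 against 13193 to 15579 FPKM and Gzmb at 116 to 267 against 5986 to 7302 FPKM. Of the genes that define other αβ T cells, Cd8b1 was at 0.720 to 1.27 FPKM and Cd4 at no more than 0.0881 FPKM in these 6 libraries.

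The genes lie on 6 chromosomes, in GENCODE vM21 coordinates on GRCm38 (mm10), and all are protein-coding. Nsg2 is at chr11:32000463-32059202 on the plus strand, and Sidt1 is at chr16:44240180-44333196 on the minus strand. Lrig1 is at chr6:94604529-94700158 and Tgm2 at chr2:158116402-158146436, both on the minus strand. Zdhhc13 is at chr7:48789003-48827440 on the plus strand, and Tnfrsf26 is at chr7:143607659-143628722 on the minus strand, beside its relatives Tnfrsf22 and Tnfrsf23. Ms4a4b is at chr19:11443553-11467055 on the plus strand, in a cluster of MS4A genes. Slc25a26 overlaps Lrig1 and Rprd1b overlaps Tgm2 on the opposite strand, and whether reads were counted by strand is not stated, so reads from the shared stretches could not be assigned to 1 gene with certainty.

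RefSeq promoter windows on GRCm38.p6, 250 bases before to 50 bases after a start site, were found for 4 of the 7 genes: Nsg2 with 2 windows, Sidt1, Lrig1 and Ms4a4b. They were searched on both strands for short core motifs of the deleted factors: TCAAAG for TCF1, GNGAAAG for BLIMP1 and TTCNNNGAA for BCL6. Shown here are the genes of this set with a window whose RNA passed the test in a knockout, 5′ to 3′ along the gene, with motif matches in capitals.
Nsg2, chr11:32000169-32000468, plus strand: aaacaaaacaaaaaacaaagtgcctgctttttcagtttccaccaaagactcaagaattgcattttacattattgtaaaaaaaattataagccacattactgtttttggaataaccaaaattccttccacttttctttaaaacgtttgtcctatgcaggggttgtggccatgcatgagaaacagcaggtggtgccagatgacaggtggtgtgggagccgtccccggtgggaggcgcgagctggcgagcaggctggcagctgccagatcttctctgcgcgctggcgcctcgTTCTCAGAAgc
Sidt1, chr16:44332789-44333088, minus strand: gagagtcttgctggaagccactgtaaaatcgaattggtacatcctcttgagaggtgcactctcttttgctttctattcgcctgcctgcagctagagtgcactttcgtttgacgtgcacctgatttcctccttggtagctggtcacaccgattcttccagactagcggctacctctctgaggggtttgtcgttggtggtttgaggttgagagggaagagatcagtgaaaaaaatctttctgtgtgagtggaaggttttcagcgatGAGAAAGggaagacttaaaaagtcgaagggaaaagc
Lrig1, chr6:94700096-94700395, minus strand: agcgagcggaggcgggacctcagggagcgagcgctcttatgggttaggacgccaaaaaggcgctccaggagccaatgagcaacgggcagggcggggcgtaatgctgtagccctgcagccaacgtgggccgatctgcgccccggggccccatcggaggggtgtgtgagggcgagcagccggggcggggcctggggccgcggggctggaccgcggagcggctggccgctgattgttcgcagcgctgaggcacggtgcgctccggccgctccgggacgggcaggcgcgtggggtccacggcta
The Nsg2 window held 1 match to the BCL6 motif, 39 bases after the start, and the neighbouring window at chr11:32000450-32000749 held the same copy. The Sidt1 window held 1 match to the BLIMP1 motif, 14 bases after its start. The windows of Lrig1 and Ms4a4b held no match to any of the 3 motifs. Of 32851 mouse promoter windows of this length, 16.0% held the TCF1 motif, 22.6% the BLIMP1 motif and 8.30% the BCL6 motif, so such matches are common and describe these letters alone.

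All 7 genes were higher in every RFP+CD160+ library than in any RFP-CD160- library, by 3.71-fold for Zdhhc13 to 42.4-fold for Tgm2. The genes were chosen from this very contrast, so these values describe them and carry no test. Of the 9717 genes tested in this experiment, 23.4% had the same order of libraries, and 16.4% were called higher by limma at an adjusted p under 0.05. Since the cells were measured in bulk, fewer expressing cells and less RNA per cell cannot be told apart.

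Tgm2 encodes transglutaminase 2, an enzyme that cross-links proteins and is the autoantigen of coeliac disease. It was at 28.0, 25.4 and 30.8 FPKM in the 3 RFP+CD160+ libraries and at 0.788, 0.846 and 0.350 FPKM in the RFP-CD160- libraries. Its level was the highest of the 7 genes in RFP+CD160+ cells (28.1 ± 2.69 FPKM, SD, n = 3) against 0.662 ± 0.271 FPKM (SD, n = 3) in RFP-CD160- cells. The lowest of those libraries, the third, rested on 28 reads and had the gene at less than the level of the other two.

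Zdhhc13 encodes a palmitoyltransferase, an enzyme that attaches a fatty acid to proteins and so tethers them to membranes. It was at 19.1, 18.2 and 18.6 FPKM in RFP+CD160+ libraries and at 5.23, 4.75 and 5.07 FPKM in RFP-CD160- libraries. The groups were far apart, but Zdhhc13 kept the most RNA of the 7 genes in RFP-CD160- cells, and its difference of 3.71-fold was the smallest.

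Nsg2 and Sidt1 encode membrane proteins of the endosome and lysosome pathway. Nsg2 is best known from neurons, where it takes part in the traffic of receptors, and Sidt1 belongs to the SID-1 family named for a double-stranded RNA channel of nematodes. Nsg2 was at 20.5, 21.2 and 18.3 FPKM in RFP+CD160+ libraries and at 1.47, 1.56 and 1.91 FPKM in RFP-CD160- libraries, a difference of 12.1-fold. Sidt1 was at 22.1, 20.5 and 25.2 FPKM against 1.52, 1.90 and 1.89 FPKM, a difference of 12.8-fold. Both genes thus stayed detectable, above 1 FPKM, in every RFP-CD160- library.

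Lrig1, Tnfrsf26 and Ms4a4b encode proteins of the cell surface. LRIG1 is a brake on receptors of the epidermal growth factor (ERBB) family and also marks stem cells of the intestinal epithelium. Lrig1 was at 12.4, 10.9 and 13.1 FPKM in RFP+CD160+ libraries and at 0.748, 0.569 and 0.557 FPKM in RFP-CD160- libraries, a difference of 19.4-fold. Tnfrsf26 encodes a member of the tumour necrosis factor receptor family. It was at 7.80, 7.82 and 9.82 FPKM against 0.433, 0.336 and 0.179 FPKM, a difference of 26.9-fold. Ms4a4b encodes a T cell protein that crosses the cell membrane several times. It was at 4.05, 4.35 and 4.43 FPKM against 0.207, 0.219 and 0.125 FPKM, a difference of 23.3-fold and the lowest level of the 7 in RFP+CD160+ cells. With Tgm2, these 3 genes were under 1 FPKM in every RFP-CD160- library, so those 4 passed the filter on low values only through the RFP+CD160+ libraries.

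The order of the mean levels in RFP+CD160+ cells was Tgm2, Sidt1, Nsg2, Zdhhc13, Lrig1, Tnfrsf26 and Ms4a4b. Sidt1 and Nsg2 overlapped between libraries, as did Nsg2 and Zdhhc13, so these neighbours did not differ beyond their spread. The other neighbours did not overlap, although the lowest Tgm2 library, at 25.4 FPKM, lay just above the highest Sidt1 library, at 25.2 FPKM. The order rests on FPKM and so on the exon length of each gene model. Ms4a4b, with 8780 exon bases, had 534 to 658 reads in RFP+CD160+ libraries, and Tnfrsf26, with 3218, had 366 to 535.

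In the LI libraries all 7 genes were above every RFP-CD160- library, and they fell on either side of the RFP+CD160+ range. The share of all genes with these orders was not counted, and the 7 were chosen for low values in RFP-CD160- cells. Nsg2 was at 28.1 FPKM in LI_1 and 29.7 FPKM in LI_2, and Sidt1 at 25.3 and 27.5 FPKM. Tnfrsf26 was at 13.6 and 13.7 FPKM, and Ms4a4b at 7.95 and 8.35 FPKM. These 4 genes were higher in both LI libraries than in any RFP+CD160+ library, Sidt1 by a margin smaller than the spread between those libraries. Tgm2, at 12.3 and 11.8 FPKM, and Zdhhc13, at 13.8 and 14.6 FPKM, were lower than in any RFP+CD160+ library. Lrig1, at 11.0 and 11.8 FPKM, fell within the RFP+CD160+ range.

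**Figure D1:**
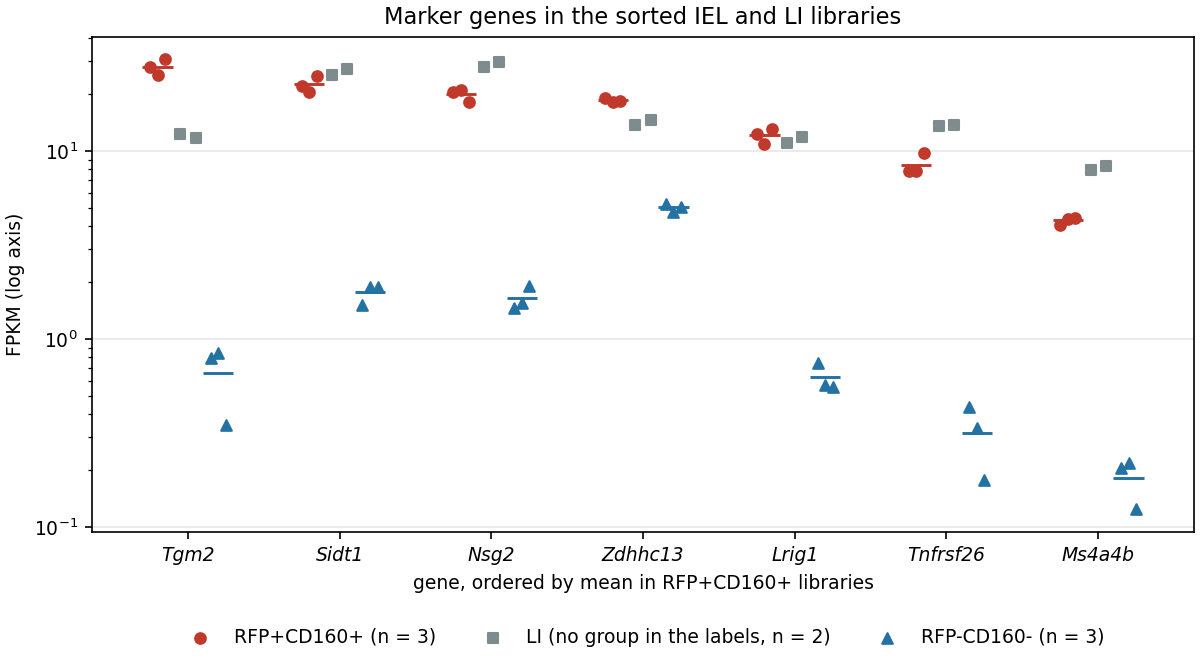
FPKM (log axis) of the 7 genes in each sorted library; each point is 1 library (circles RFP+CD160+, triangles RFP-CD160-, squares LI) and lines are group means. The RFP+CD160+ points lie above the RFP-CD160- points for every gene, and the LI squares lie above the circles for Nsg2, Sidt1, Tnfrsf26 and Ms4a4b but below them for Tgm2 and Zdhhc13.

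Genes of other cells moved with these groups. Genes of naive circulating T cells, with 7 of 8 in the table, summed to 18.9 to 32.4 FPKM in RFP+CD160+ libraries, 5.32 to 9.15 FPKM in RFP-CD160- libraries and 140 to 146 FPKM in LI libraries. Of these 7, 5 were higher in every RFP+CD160+ library than in any RFP-CD160- library. Most of the sum was Klf2, a transcription factor of recirculating T cells, at 15.2 to 28.2, 4.46 to 8.15 and 121 to 125 FPKM in RFP+CD160+, RFP-CD160- and LI libraries. In the same order, S1pr1, a receptor for exit from tissue, was at 0.565 to 0.899, 0.0945 to 0.338 and 10.2 to 11.5 FPKM. The transcription factor gene Lef1 was at 1.20 to 1.5, 0.295 to 0.393 and 4.42 to 4.64 FPKM, and the cytokine receptor gene Il7r at 1.55 to 1.70, 0.0772 to 0.198 and 3.06 to 3.90 FPKM. Ccr7, a chemokine receptor of naive T cells, was at no more than 0.404 FPKM in any of the 8 libraries.

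Of 10 genes of CD4 and CD8αβ T cells, 5 were higher in every RFP+CD160+ library than in any RFP-CD160- library and 1 was lower. Thy1, a surface protein of most T cells outside the gut lining, was at 16.5 to 20.0, 1.36 to 2.65 and 59.0 to 60.2 FPKM in RFP+CD160+, RFP-CD160- and LI libraries. Cd28, a costimulatory receptor, was at 0.562 to 3.00, 0.0282 to 0.148 and 11.5 to 13.6 FPKM, and Cd40lg at 3.26 to 5.94, 0.775 to 1.66 and 1.41 to 1.81 FPKM. The sum of the 10 was 44.2 to 53.6, 31.8 to 60 and 105 to 109 FPKM. All 14 genes of small intestinal epithelium were in the table and summed to 44.4 to 65.0, 56.8 to 169 and 30.3 to 34.0 FPKM. In both LI libraries 4 of those 14 were listed at 0, among them Fabp1, a fatty acid carrier of absorptive cells. The part of these cells in the levels of the 7 genes was not tested.

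Nsg1, of the family of Nsg2, was at 0.0208 to 0.0552 FPKM in RFP+CD160+ libraries and at most 0.0716 FPKM in RFP-CD160- libraries. Sidt2, the other member of the SID-1 pair, was more abundant than Sidt1 in both groups, at 53.3 ± 4.68 and 48.2 ± 2.89 FPKM (SD, n = 3 each), and was not called (log2 difference 0.14 ± 0.07, SE, limma adjusted p = 0.170). Lrig2 was at 3.89 ± 0.318 and 3.59 ± 0.30 FPKM (SD, n = 3 each) and was not called (limma adjusted p = 0.417). Tnfrsf22 and Tnfrsf23, decoy receptors for the death ligand TRAIL that neighbour Tnfrsf26, were too low to be tested. Tnfrsf22 was at 0.295 to 0.424 FPKM in RFP+CD160+ libraries and at most 0.0137 FPKM in RFP-CD160- libraries, and Tnfrsf23 was at 0.169 to 0.179 and at most 0.0454 FPKM.

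Over 7 lists of family and pathway relatives, 40 relatives could be tested between the sorted groups and 21 were called, against 38% of all genes tested. Of the 21, 6 were higher and 15 lower in RFP+CD160+ cells. The 1 tested MS4A relative, Ms4a6b, rose with Ms4a4b, from 11.8 ± 2.46 to 27.0 ± 1.06 FPKM (SD, n = 3 each; limma adjusted p = 1.97e-04). Of 10 tested death receptor and TRAIL genes, 2 were higher and 6 lower, with a median log2 difference of -0.25 against -0.03 over all genes. Tnfrsf10b, the signalling TRAIL receptor, was higher (4.77 ± 1.08 against 1.49 ± 0.436 FPKM, SD, n = 3 each; limma adjusted p = 7.19e-04). Fasl, the ligand of the death receptor Fas, was lower (44.4 ± 9.78 against 112 ± 22.1 FPKM, SD, n = 3 each; limma adjusted p = 8.19e-04). Tnfrsf1a, Tradd, Fadd and Ripk1, which carry death signals into the cell, were lower by log2 differences of -0.52, -0.26, -0.38 and -0.25.

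Of 26 tested palmitoylation genes other than Zdhhc13, 11 were called, 3 higher and 8 lower, in a comparison where 38% of all genes were called. Their median log2 difference was -0.10, against -0.03 over all genes. Zdhhc17, the closest relative of Zdhhc13, was at 9.74 ± 0.704 FPKM in RFP+CD160+ and 7.45 ± 0.303 FPKM in RFP-CD160- libraries (SD, n = 3 each; log2 difference 0.34 ± 0.07, SE, limma adjusted p = 0.00514). Zdhhc14 was lower by a log2 difference of -0.54, Zdhhc18 by -0.41, Zdhhc24 by -0.43, Abhd17a by -0.35 and Golga7 by -0.32. Of the LRIG and ERBB list, 2 of 15 relatives could be tested, and Erbb3 was lower (1.21 ± 0.0973 against 1.74 ± 0.267 FPKM, SD, n = 3 each; limma adjusted p = 0.0480), a call lost without any 1 of 5 libraries (adjusted p of 0.0650 to 0.15). No other transglutaminase passed the filter. With library totals rescaled to a common total, the median gene moved from -0.03 to 0.12 on the log2 scale and 14 relatives were called, 8 higher and 6 lower; Erbb3, Abhd17a, Golga7, Tradd and Ripk1 were among those lost.

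**Figure D2:**
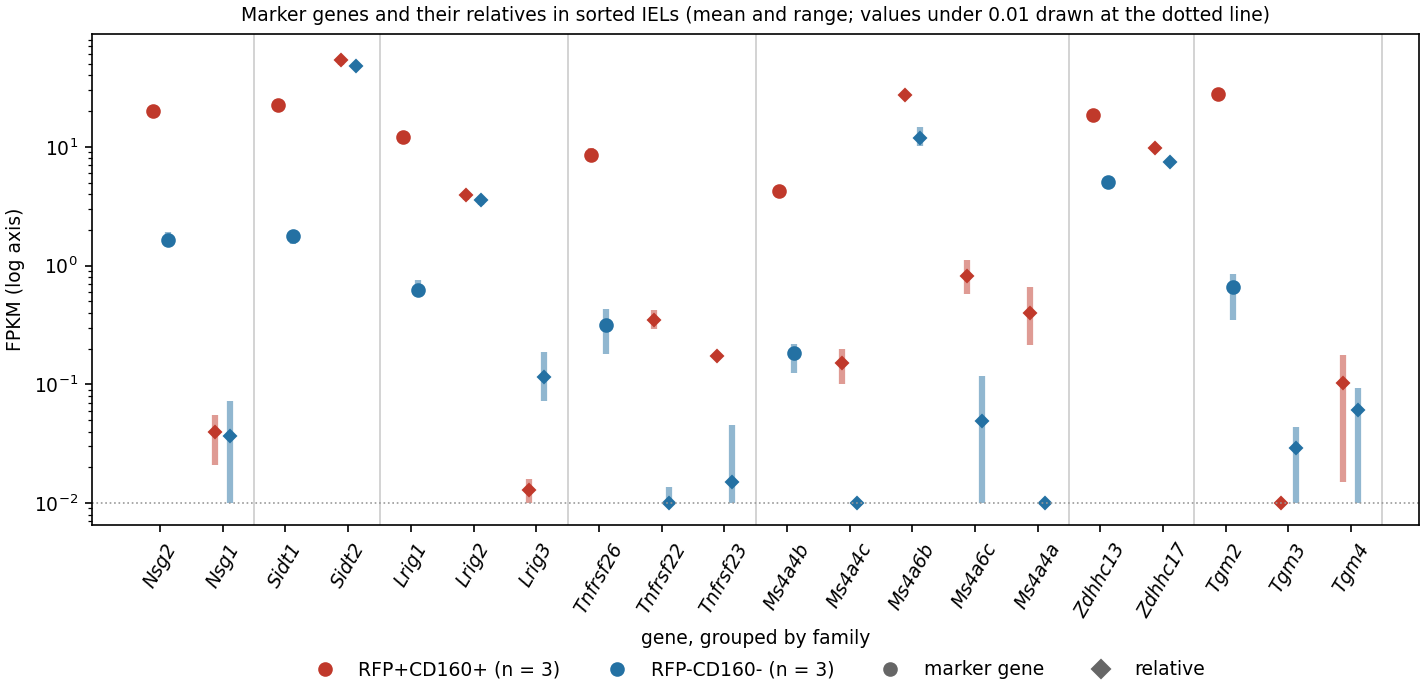
FPKM (log axis) of the 7 genes (circles) and their close relatives (diamonds) as the mean of 3 libraries per sorted group, with bars from the lowest to the highest library and values under 0.01 drawn at the dotted line. Sidt2 and Lrig2 lie at like heights in both groups, whereas Sidt1 and Lrig1 part by 12.8-fold and 19.4-fold.

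The knockouts ask what the loss of each factor does to these genes in the whole CD8αα+ population. The deleted gene was checked first. Prdm1 was at 640 and 362 scaled reads in the 2 Prdm1 knockout libraries against 6092 and 5117 in the littermates. Tcf7 was at 7757 and 7993 scaled reads in its knockout against 15430 and 15606 in the littermates. Bcl6 was at 0.550 and 0.638 FPKM against 0.772 and 0.735 FPKM, under the filter on low values in all 4 libraries. The values are per gene and not per exon, so RNA of a deleted stretch cannot be told apart from that of other exons. The small Bcl6 difference therefore says little about the deletion, which these values leave unchecked.

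Loss of Prdm1 raised 6 of the 7 genes, all but Ms4a4b. By limma, 4.29% of the 10969 genes tested were called higher. Every Prdm1 knockout library was above both littermate libraries for all 7 genes, an order that 21.8% of the genes tested had. The median log2 difference of the 7 genes was 1.32, against -0.04 over all genes tested.

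Lrig1 was at 3465 and 2758 scaled reads in the Prdm1 knockout libraries and at 682 and 980.2 in the littermates. It rose by 1.92 ± 0.19 on the log2 scale (SE, limma adjusted p = 0.00419), the most of the 7. Tgm2 was at 6064 and 7483 against 1279 and 2832 scaled reads, and rose by 1.82 ± 0.34 (SE, limma adjusted p = 0.0255). The 2 littermate libraries were far apart for Tgm2, and its standard error was the widest of the 7.

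Sidt1 was at 3880 and 3607 scaled reads in the knockout and at 1339 and 1681 in the littermates, a rise of 1.32 ± 0.13 (SE, limma adjusted p = 0.00391). Nsg2 was at 1968 and 2304 against 706.6 and 1130.3 scaled reads, a rise of 1.25 ± 0.22 (SE, limma adjusted p = 0.0219). Tnfrsf26 was at 1054 and 965 against 313 and 507, a rise of 1.34 ± 0.23 (SE, limma adjusted p = 0.0207). In none of these 3 genes did a littermate reach the knockout libraries.

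Zdhhc13 was at 1744 and 1690.1 scaled reads in the knockout and at 677 and 1054 in the littermates, a rise of 1.02 ± 0.20 (SE, limma adjusted p = 0.0323). Ms4a4b was at 388 and 327 against 222 and 299 scaled reads, with a log2 difference of 0.47 ± 0.21 (SE, limma adjusted p = 0.272). It was the 1 gene of the 7 that did not pass the test. Littermate replicate 1 was below littermate replicate 2 for all 7 genes, so part of the spread was shared between genes.

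The 6 calls were also made by edgeR and by DESeq2 on the recovered reads, and with any 1 library left out. With limma's variance prior not allowed to depend on expression, Lrig1 and Sidt1 alone stayed called, and the adjusted p of the other 4 was 0.0692 to 0.106.

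Other RNA moved in both directions in the Prdm1 experiment. The 14 epithelial genes summed to 11355 to 17030.5 scaled reads in the knockout and to 5492 to 5962 in the littermates. Of the 14, 12 were higher in both knockout libraries than in either littermate. Krt8, a keratin, was at 929 to 1094 against 198 to 250 scaled reads, Vil1, a protein of the brush border, at 669 to 793 against 222 to 252, and Olfm4, a marker of crypt stem cells, at 1785 to 2404 against 274 to 400. Epcam, an adhesion protein of epithelium, was at 2763 to 2812 against 2745 to 2778. Genes of naive circulating T cells, with 7 of 8 in the table, summed to 1288 to 2024 against 1015 to 1039. The 11 listed genes of CD8αα+ IELs went the other way, summing to 343831 to 352976 against 862210 to 889488. Of these 11, 8 were lower in both knockout libraries than in either littermate and 1 was higher. Genes of macrophages and dendritic cells, with 11 of 12 in the table, summed to 6253 to 6357 against 9922 to 12251. Most of that sum was Itgax, at 5809 to 5995 against 9598 to 11973 scaled reads. In this list 2 genes were higher in both knockout libraries than in either littermate, 3 were lower and 6 overlapped. The part of any of these lists in the rise of the 7 genes was not tested.

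Among the relatives, 5 of 49 were called in the Prdm1 knockout, against 6.84% of all genes tested. Of the 6 tested LRIG and ERBB relatives, 3 rose: Erbb2 from 29.0 ± 4.37 to 177 ± 41.4 scaled reads (SD, n = 2 each; limma adjusted p = 0.00933), Erbb3 from 330 ± 2.41 to 679.6 ± 48.7 (limma adjusted p = 0.0110), and the ligand Hbegf from 34.9 ± 12.8 to 172 ± 25.9 (limma adjusted p = 0.0162). Lrig1 thus rose beside 2 receptors of the family that it restrains and 1 ligand of that family. ERBB receptors are also made by epithelial cells, whose summed RNA was higher in these knockout libraries. That sum was also higher in the Tcf7 knockout, where Erbb2 (log2 difference -0.0509), Erbb3 (0.172) and Hbegf (1.498) were not called. The part of epithelial cells in the rise of these 3 genes in the Prdm1 knockout was not tested. Of 11 tested death receptor and TRAIL genes, Tnfrsf10b rose by 1.00 ± 0.22 (SE, limma adjusted p = 0.0456), a call lost with eBayes without trend (limma adjusted p = 0.109), with quantile normalization (0.0728) or without knockout replicate 1 (0.102). Fasl fell by 1.02 ± 0.10 on the log2 scale (SE, limma adjusted p = 0.00391). No palmitoylation gene other than Zdhhc13 was called, of 28 tested.

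Loss of Tcf7 lowered 3 of the 7 genes, Nsg2, Sidt1 and Tnfrsf26, and left Tgm2 without a call. By limma, 1.23% of the 15210 genes tested were called lower. Both Tcf7 knockout libraries were below both littermates for 6 of the 7 genes, an order that 20.7% of the genes tested had, and Tgm2 had the opposite order, as 20.9% of genes did.

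Sidt1 was at 925 and 939 scaled reads in the Tcf7 knockout libraries and at 2274 and 2195 in the littermates. It fell by 1.26 ± 0.08 on the log2 scale (SE, limma adjusted p = 2.14e-06). Nsg2 was at 981 and 852 against 1929 and 2021 scaled reads, and fell by 1.11 ± 0.09 (SE, limma adjusted p = 1.51e-05). For both genes the drop was far larger than the spread between libraries.

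Tnfrsf26 was at 247 and 292 scaled reads in the knockout and at 532 and 462 in the littermates, and fell by 0.88 ± 0.16 (SE, limma adjusted p = 0.00649). Without knockout replicate 1 its adjusted p was 0.0639. Its neighbour Tnfrsf22 was at 21.9 and 46.4 against 69.6 and 79.0 scaled reads as lowest and highest library of each group, and was not called (limma adjusted p = 0.230).

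Lrig1 was at 678 and 789 scaled reads in the knockout against 902 and 979, with a log2 difference of -0.36 ± 0.11 (SE, limma adjusted p = 0.136). Without littermate replicate 1 it was called (-0.42, limma adjusted p = 0.0302). Ms4a4b was at 646 and 576 against 768 and 802, with a log2 difference of -0.36 ± 0.11 (SE, limma adjusted p = 0.145). These 2 genes had non-overlapping groups and differences less than that of Tnfrsf26.

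Zdhhc13 was at 1012 and 945 scaled reads in the knockout against 1187 and 1072, with a log2 difference of -0.21 ± 0.10 (SE, limma adjusted p = 0.40). Tgm2 was at 4420.3 and 4266 against 3958 and 4064, with a log2 difference of 0.11 ± 0.06 (SE, limma adjusted p = 0.451). Tgm2, the gene with the highest FPKM in RFP+CD160+ cells, thus had an estimate close to 0 with a small standard error.

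The 3 calls were also made by edgeR and by DESeq2 on the recovered reads. With a variance prior that does not depend on expression, none of the 7 genes was called, and the adjusted p was 0.0575 for Sidt1, 0.101 for Nsg2 and 0.173 for Tnfrsf26. The 14 epithelial genes summed to 16135 to 17067 scaled reads in the knockout against 12130 to 12373, with 12 of the 14 higher in both knockout libraries. In the same order, 7 genes of naive circulating T cells summed to 1791 to 1896 against 1720 to 1844. The 11 listed genes of CD8αα+ IELs summed to 1.32e+06 to 1.35e+06 against 1.03e+06 to 1.08e+06, with 10 higher and 1 lower. The 10 genes of CD4 and CD8αβ T cells summed to 4747 to 4839 against 3629 to 3858, with 6 higher and 2 lower. The part of these lists in the Tcf7 knockout effects was not tested. Of 51 tested relatives, Fasl alone was called (log2 difference 0.30 ± 0.05, SE, limma adjusted p = 0.00313), against 2.72% of all genes tested, and not without knockout replicate 1 (limma adjusted p = 0.0574).

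In the Bcl6 experiment none of the 7 genes was called by limma, against 0.418% of the 9573 genes tested in either direction. At an unadjusted p under 0.05 there were 4 of the 7 genes and 559 of all genes. The estimate was below 0 for all 7, with a median log2 difference of -0.57 against 0.03 over all genes tested. Both knockout libraries were below both littermates for 6 of the 7 genes, an order that 14% of the genes tested had.

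Sidt1 was at 4.33 and 3.45 FPKM in the Bcl6 knockout libraries and at 7.61 and 9.36 FPKM in the littermates, with a log2 difference of -0.96 ± 0.20 (SE, limma adjusted p = 0.127). Lrig1 was at 0.612 and 0.308 against 1.65 and 1.71 FPKM, with a log2 difference of -0.88 ± 0.20 (SE, limma adjusted p = 0.196). At these low levels the pseudocount of 1 shrinks the difference of Lrig1, which was -1.72 ± 0.41 with a pseudocount of 0.1 FPKM (SE, limma adjusted p = 0.252). Sidt1 and Lrig1 were the furthest of the 7 from 0, and their littermates were well above the knockout libraries.

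Tgm2 was at 12.7 and 7.76 FPKM in the knockout and at 14.3 and 18.2 FPKM in the littermates, with a log2 difference of -0.65 ± 0.24 (SE, limma adjusted p = 0.725). Nsg2 was at 2.47 and 2.16 against 3.88 and 3.95 FPKM, with a log2 difference of -0.57 ± 0.18 (SE, limma adjusted p = 0.577). For Tgm2 the 2 knockout libraries differed from each other by more than the higher of them differed from the lower littermate.

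Tnfrsf26 was at 6.52 and 9.45 FPKM in the knockout against 9.46 and 10.5 FPKM, with a log2 difference of -0.31 ± 0.21 (SE, limma adjusted p = 0.949). Ms4a4b was at 1.44 and 1.97 against 2.23 and 2.00 FPKM, with a log2 difference of -0.21 ± 0.20 (SE, limma adjusted p = 0.949). In both genes the higher knockout library all but touched the lower littermate. Zdhhc13 was at 9.02 and 9.98 against 10.3 and 9.02 FPKM, with overlapping groups and a log2 difference of -0.02 ± 0.17 (SE, limma adjusted p = 0.990).

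The 2 Bcl6 knockout libraries stood further apart than any other pair of replicates, with a chi-square of 76.2 per degree of freedom over genes against 20.1 for the littermates. Without knockout replicate 1, limma called 4 of the 7 genes lower: Sidt1 (-1.09, adjusted p = 6.71e-06), Lrig1 (-1.03, adjusted p = 8.92e-04), Tgm2 (-0.97, adjusted p = 5.65e-06) and Nsg2 (-0.64, adjusted p = 0.0352). Without knockout replicate 2, Sidt1 alone was called (-0.83, adjusted p = 0.00376). Calls rose over all genes too: 8.88% of the 9573 genes were called lower without replicate 1 and 1.36% without replicate 2. In both fits the remaining knockout library is taken to vary like the littermates. The 14 epithelial genes summed to 188 to 208 FPKM in the knockout and 218 to 234 FPKM in the littermates, and 6 of the 8 naive T cell genes to 4.46 to 5.06 against 6.73 to 7.07 FPKM. All 12 genes of macrophages and dendritic cells summed to 34.0 FPKM in knockout replicate 1 and 69.7 FPKM in knockout replicate 2, against 30.3 and 37.5 FPKM in the littermates. Of these 12, 1 was higher in both knockout libraries than in either littermate, 1 was lower and 10 overlapped. The higher gene was Lyz2, a lysozyme, at 6.71 and 22.7 FPKM as lowest and highest knockout library against 4.59 and 6.08 FPKM. C1qb, a complement gene, overlapped, at 1.67 and 12.0 against 1.64 and 3.24 FPKM. Of the 10 genes of CD4 and CD8αβ T cells, 7 were lower in both knockout libraries than in either littermate, while Cd4 was higher, at 1.08 to 1.76 against 0.0863 to 0.179 FPKM. The part of these cells was not tested. None of 39 tested relatives was called.

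**Figure D3:**
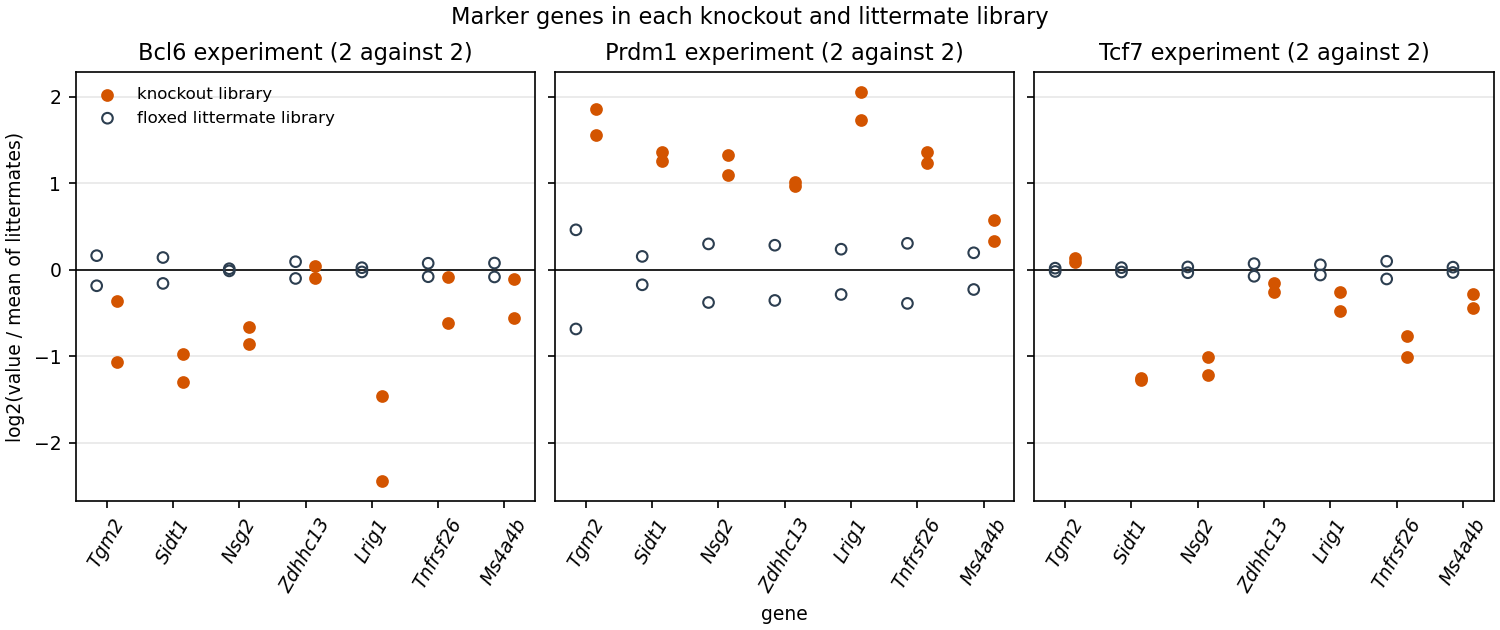
Log2 of each library's value over the mean of its littermates (vertical axis) for the 7 genes in the Bcl6, Prdm1 and Tcf7 experiments; filled points are knockout libraries and open points littermates, 2 each. All Prdm1 knockout points lie above the open points, and the Tcf7 knockout points of Sidt1 and Nsg2 lie more than 1 unit below 0 on the log2 scale.

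Whether the knockouts differ in their effect was tested directly, over the 8 libraries of a pair of experiments, which share no libraries. The Prdm1 effect was higher than the Bcl6 effect for 5 of the 7 genes (2.06% of 9315 genes called higher by limma). The difference in log2 effect was 2.80 ± 0.29 for Lrig1 (SE, limma adjusted p = 9.16e-04) and 2.27 ± 0.24 for Sidt1 (SE, limma adjusted p = 9.16e-04). It was 1.82 ± 0.29 for Nsg2 (SE, limma adjusted p = 0.00743). Tgm2 differed by 2.47 ± 0.47 (SE, limma adjusted p = 0.0178) and Tnfrsf26 by 1.65 ± 0.33 (SE, limma adjusted p = 0.0212). Lrig1, Sidt1 and Nsg2 were called with any 1 library left out. Tgm2 was lost without Bcl6 knockout replicate 2 (adjusted p = 0.0532), Bcl6 littermate replicate 2 (0.0883) or Prdm1 knockout replicate 2 (0.050). Tnfrsf26 was lost without Bcl6 littermate replicate 1 (0.0686) or 2 (0.102), Prdm1 knockout replicate 1 (0.0602) or Prdm1 littermate replicate 1 (0.0615). Zdhhc13 differed by 1.04 ± 0.28 (SE, limma adjusted p = 0.0790) and passed the threshold without Prdm1 littermate replicate 2 (0.0138). Ms4a4b differed by 0.68 ± 0.30 (SE, limma adjusted p = 0.332). The size of these differences depends on the pseudocount of 1, which weighs on the low FPKM of Lrig1 in the Bcl6 experiment. With 0.1 FPKM and 10 scaled reads in its place, Lrig1 differed by 3.63 ± 0.40 (SE, limma adjusted p = 0.00188), and the same 5 genes were called.

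The Prdm1 effect was higher than the Tcf7 effect for 6 of the 7 genes (5.19% of 10841 genes called higher by limma). The difference was largest for Sidt1, at 2.58 ± 0.15 (SE, limma adjusted p = 2.96e-05), followed by Nsg2 at 2.36 ± 0.27 (SE, limma adjusted p = 7.96e-04). Lrig1 differed by 2.28 ± 0.25 (SE, limma adjusted p = 6.10e-04) and Tnfrsf26 by 2.22 ± 0.30 (SE, limma adjusted p = 0.00182). These 4 genes were called with any 1 library left out. Tgm2 differed by 1.71 ± 0.40 (SE, limma adjusted p = 0.0264), lost without Prdm1 knockout replicate 2 (0.0815) or any 1 of the 4 Tcf7 libraries (0.0901 to 0.114). Zdhhc13 differed by 1.23 ± 0.25 (SE, limma adjusted p = 0.0132), lost without Tcf7 knockout replicate 2 (0.0661) or littermate replicate 1 (0.0749) or 2 (0.0544). Ms4a4b differed by 0.83 ± 0.23 (SE, limma adjusted p = 0.0578), called with the replicate block (0.0265), with centring on well expressed genes (0.0430) or without Prdm1 littermate replicate 2 (0.0101).

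The Tcf7 and Bcl6 effects were not called different for any of the 7 genes by limma, against 0.48% of 9370 genes called in either direction. At an unadjusted p under 0.05 there were 626 of all genes, among them Lrig1, Tgm2, Nsg2 and Tnfrsf26. The Tcf7 minus Bcl6 difference was 0.76 ± 0.28 for Tgm2 (SE, limma adjusted p = 0.616) and 0.52 ± 0.22 for Lrig1 (SE, limma adjusted p = 0.726). It was -0.54 ± 0.17 for Nsg2 (SE, limma adjusted p = 0.490) and -0.57 ± 0.25 for Tnfrsf26 (SE, limma adjusted p = 0.747). Without Bcl6 knockout replicate 1, Tgm2 (1.08, adjusted p = 0.00248) and Tnfrsf26 (-0.81, adjusted p = 0.0268) were called, in a fit that called 16% of all genes. The pseudocount of 1 weighs more on the low FPKM of the Bcl6 experiment than on scaled reads. With 0.1 FPKM and 10 scaled reads in its place, the difference was 1.37 ± 0.37 for Lrig1 (SE, limma adjusted p = 0.339) and -0.37 ± 0.20 for Nsg2 (SE, limma adjusted p = 0.825), and none of the 7 genes was called.

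**Figure D4:**
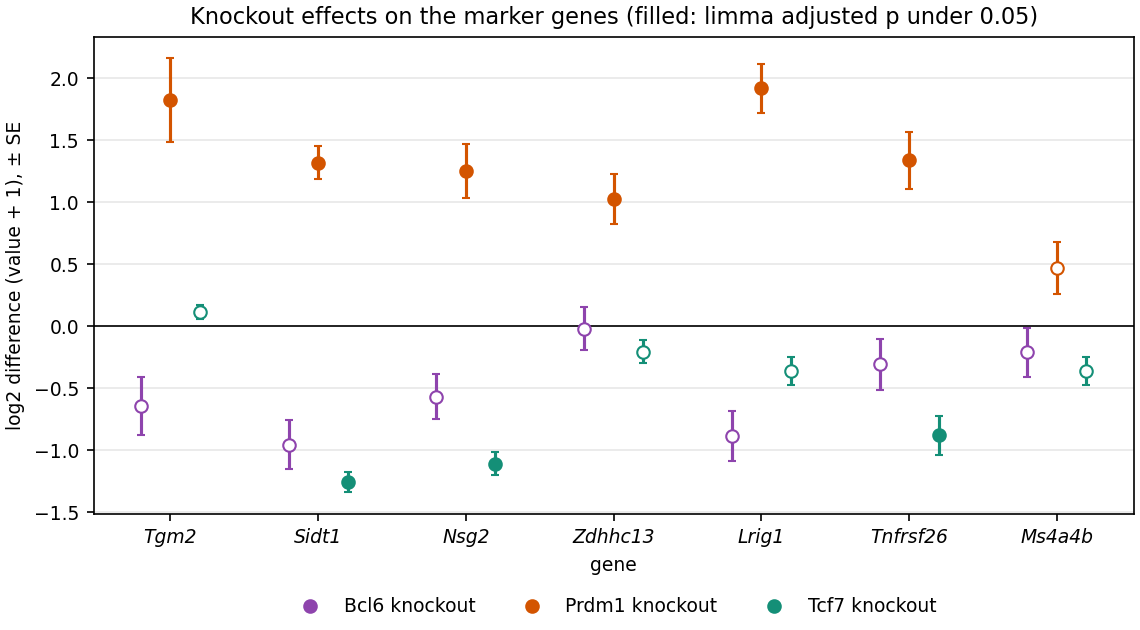
Log2 difference between knockout and littermates, from log2(value + 1) with bars of 1 SE, for the 7 genes in the Bcl6, Prdm1 and Tcf7 experiments; filled points passed limma's adjusted p of 0.05. The Prdm1 points lie between 0.47 and 1.92, and the Tcf7 points run from -1.26 for Sidt1 to 0.11 for Tgm2.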

How the data were processed

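Bulk RNA of sorted CD8αα+ IELs was measured in 20 libraries, and the 7 genes and all lists were chosen with earlier results of these data known. Per the labels' protocols, RNA was extracted with MagZol and libraries were made by BGI Genomics or Novogene. Per the submitters' processing notes, reads were handled with DESeq2, RSEM, featureCounts, Subread, Bowtie2 and Trim Galore 0.4.4 on mm10, with no role or order stated. The authors deposited FPKM for the RFP, LI and Bcl6 libraries. The deposited Prdm1 and Tcf7 tables are also named FPKM, but hold a signal of reads divided by 1 factor per library: 100% of values were whole multiples of a step (tolerance 0.01 of a read). FPKM times GENCODE vM21 exon length gave whole reads for 96.4 to 97.7% of low values (tolerance 0.02), from which depth was derived. Symbols matched GENCODE vM21 for 84.8 to 98.8% of rows.

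Each experiment was fitted alone with limma 3.58.1 (R 4.3.3, eBayes with trend) on log2(value + 1), which understates changes of low genes. Genes entered at 1 FPKM or 50 scaled reads in at least 3 libraries (RFP) or 2 (knockouts). P-values were two-sided and Benjamini-Hochberg adjusted over all genes tested, and called means an adjusted p under 0.05. Differences between knockout effects were tested as an interaction over 8 libraries. The fits were tested on simulated data. Alternatives were the pseudocount (0.1 FPKM or 10 scaled reads), no filter, rescaled totals, quantile normalization, centring on well expressed genes, eBayes without trend, a replicate block, leaving out each library, and edgeR 4.0.16 and DESeq2 1.42.0 on recovered reads. Replicates differed by more than counting noise (chi-square per degree of freedom of 4.27 to 76.2).

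Genes named are the 7; the deleted and sorted genes; of the family lists, up to 6 called genes per list and comparison by smallest p; and the 3 genes most correlated with each of the 7. Close relatives and cell type markers printed with levels were named beside their results after their values were seen.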

Additional observations from a re-analysis of the deposited data

Results flagged for a closer look

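The effects of Prdm1 and Bcl6 loss differed by limma's interaction test for Lrig1 (2.80 on the log2 scale), Tgm2 (2.47), Sidt1 (2.27), Nsg2 (1.82) and Tnfrsf26 (1.65). The value of Lrig1 was 3.63 with pseudocounts of 0.1 FPKM and 10 scaled reads. Among the relatives these effects differed for Hbegf, a ligand of the ERBB family (2.61), and for Fasl (-1.57). The effects of Prdm1 and Tcf7 loss differed for Sidt1 (2.58), Nsg2 (2.36), Lrig1 (2.28), Tnfrsf26 (2.22), Tgm2 (1.71) and Zdhhc13 (1.23). Among the relatives they differed for Erbb2 (2.60), Tnfrsf22 (2.25), Tnfrsf10b (1.22), Erbb3 (0.87) and Fasl (-1.32). In each of these differences a positive value means a higher Prdm1 effect. The calls of Tnfrsf22, Tnfrsf10b and Erbb3 against Tcf7, and of Hbegf against Bcl6, were lost without at least 1 library.

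In the LI libraries, which belong to no group and entered no test, all 7 genes were above every RFP-CD160- library. The genes were chosen for low values in RFP-CD160- cells, and the share of all genes with this order was not counted.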

How the results depend on the processing

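In the Bcl6 knockout 0 of the 7 genes were called, but 4 without knockout replicate 1 and 1 without knockout replicate 2 (range 0 to 4 with 1 library left out). In the Prdm1 knockout 6 were called with each library left out (6 to 6) and 2 with eBayes without trend. In the Tcf7 knockout 3 were called, 2 to 4 with 1 library left out and 0 with eBayes without trend, which called 9 of all genes in place of 413. The Prdm1 and Bcl6 effects differed for 5 genes, 3 to 6 with 1 library left out and 3 without Bcl6 littermate replicate 2. The Prdm1 and Tcf7 effects differed for 6 genes, 4 to 7 with 1 library left out. The Tcf7 and Bcl6 effects differed for 0 genes, 0 to 2 with 1 library left out and 2 without Bcl6 knockout replicate 1. The cause of these changes was not tested. The estimate of Zdhhc13 in the Bcl6 knockout changed sign with 1 library left out, from -0.11 without littermate replicate 2 to 0.044 without knockout replicate 1 and 0.066 without littermate replicate 1.

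The median RFP difference of the 7 genes, 2.99 on the log2 scale, was 3.97 with a pseudocount of 0.1, 3.12 with library totals rescaled and 2.94 to 2.98 with 1 library left out. Relatives called between the sorted groups numbered 21, or 17 to 19 with 1 library left out. Of 3689 genes called between the sorted groups, 1591 were higher and 2098 lower; with totals rescaled 3300 were higher and 1171 lower, with centring 1980 and 1746, and with quantile normalization 2014 and 1747. Of the log2 differences of the 7 genes recomputed in the knockouts and their contrasts, 452 kept direction and side of the threshold, 23 lost a call, 13 gained one and 2 changed sign.

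Counts over all genes in the knockouts were less stable. With 1 library left out, 40 to 1570 genes were called in the Bcl6 knockout (main 40), 595 to 1183 in the Prdm1 knockout (750) and 218 to 748 in the Tcf7 knockout (413). Contrasts of Prdm1 with Bcl6, Prdm1 with Tcf7 and Tcf7 with Bcl6 called 142 to 855 (326), 463 to 1506 (1027) and 13 to 1497 (45). DESeq2 called 1184 genes in the Prdm1 knockout.

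Groups share replicate numbers in the labels, but the labels do not say that a number pairs libraries. Deviations of same-numbered libraries correlated at -0.23, -0.00027 and -0.33 in the RFP experiment, -0.46 in the Bcl6, 0.53 in the Prdm1 and 0.064 in the Tcf7 experiment. In the RFP experiment the highest values, 0.36, 0.43 and 0.49, were between unlike numbers, and in the Bcl6 experiment unlike numbers correlated at 0.46. A block by number cannot model such matches. With the replicate block, calls among the 7 genes were 0 in the Bcl6, 6 in the Prdm1 and 4 in the Tcf7 knockout, and 5, 7 and 0 in the contrasts of Prdm1 with Bcl6, Prdm1 with Tcf7 and Tcf7 with Bcl6. With the block 17 relatives were called between the sorted groups, and over all genes 78, 2386 and 977 in the Bcl6, Prdm1 and Tcf7 knockouts and 2249 and 8 in the contrasts of Tcf7 with Prdm1 and with Bcl6.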

Other observations

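Over the 12 knockout and littermate libraries, each centred on the mean of its experiment, the 7 genes varied together, with Pearson r from 0.64 (Tgm2 and Ms4a4b) to 0.96 (Nsg2 and Sidt1) over 21 pairs and a median of 0.85. These values describe libraries that share genotype and experiment, so they carry no p. Among 9146 other genes, the pattern of Nsg2 was most like that of Dennd2d (0.98), Dkk3 (0.98) and Tdrp (0.97), and that of Sidt1 most like Sh3kbp1 (0.98), Tpm4 (0.98) and Syt11 (0.96). Lrig1 was most like Ehd3 (0.97), St3gal1 (0.97) and Bicdl1 (0.96), and Tgm2 most like Angptl4 (0.99), Cnksr3 (0.98) and Adamtsl2 (0.97). Zdhhc13 was most like Batf3 (0.97), Pomc (0.97) and Nfkb1 (0.96). Tnfrsf26 was most like Trpv2 (0.98), Tcf7 (0.97) and Crtam (0.97), and Ms4a4b most like Dusp1 (0.93), Tcf7 (0.93) and Clec2i (0.92). Tcf7 is itself the deleted gene of 1 of the 3 experiments.

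Several of these genes also parted the sorted groups, in a comparison where 23.4% of genes tested were higher in every RFP+CD160+ library. Batf3, Tcf7 and Dkk3 are examples with wide differences. Others differed less, such as Syt11 (3.36 ± 0.606 in RFP+CD160+ and 2.47 ± 0.134 FPKM in RFP-CD160- libraries, SD, n = 3 each), and Pomc overlapped. Batf3, a transcription factor of dendritic and T cells, was at 15.1 ± 1.56 FPKM in RFP+CD160+ and 0.539 ± 0.347 FPKM in RFP-CD160- libraries (SD, n = 3 each), with 3.42 and 3.78 FPKM in the LI libraries. Tcf7 was at 234 ± 10.1 and 4.93 ± 1.33 FPKM (SD, n = 3 each), with 261 and 272 FPKM in the LI libraries. Dkk3, a secreted protein, was at 4.54 ± 0.553 and 0.175 ± 0.121 FPKM (SD, n = 3 each), with 12.2 and 13.7 FPKM in the LI libraries. Angptl4, the gene most like Tgm2, was low in both groups, at 0.551 ± 0.192 and 0.490 ± 0.111 FPKM (SD, n = 3 each). Prdm1 loss raised Tcf7 by 1.73 ± 0.27 on the log2 scale (SE, limma adjusted p = 0.0162), from 6605 and 12467 scaled reads in the littermates to 31096 and 28955 in the knockout.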
